A study of Mus musculus with 8 samples.

Results

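Gata2, Gata3, Gata4, Gata5, Gata6, Foxa1, Foxa2 and Foxa3 code for transcription factors of the GATA and FoxA families, and DNA methylation in and around their genes was described in muscle stem cells from mice of 2 ages. The 8 genes, of 21631 protein-coding genes in the gene table used, were taken by name, with all CpG cytosines of the deposited table that lay between 10000 bp before and 10000 bp after each gene. These windows held 12093 of 33108039 positions. The genes were proposed with the methylation levels of these same samples in view, so every level and difference here is a description and none was tested.

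Cells came from the limb muscles of male C57BL/6 mice aged 4 months (young, n = 4) or 22 months (old, n = 4), with 1 animal for each library. Quiescent muscle stem cells, which lie at rest beside the muscle fibre and rebuild it after injury, were sorted as CD45- CD31- Sca1- VCAM+ and used directly. The labels name no transgene, deletion or agent in either group. Whole-genome bisulfite sequencing was used, in which unmethylated cytosines are read as thymines. The deposited levels are 1 value for each age and position, estimated by the authors over the group, so no value for an animal, no SD and no read depth stands behind any number below. A level between the extremes cannot tell a few cells with full methylation from partial methylation in all cells.

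GATA factors bind DNA at GATA motifs through zinc fingers, and FoxA factors bind through a winged-helix domain shaped like a linker histone. Members of both families are known as pioneer factors because they can bind their sites in closed chromatin, before other factors do. Neither family is among the best known regulators of adult skeletal muscle stem cells. Genes for such developmental regulators commonly lie in long stretches of CpG-rich DNA that stay free of methylation in tissues where the genes are silent as well as where they are active.

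To show the DNA at which these genes start, the 250 bases before 3 gene starts are printed from RefSeq (GRCm38.p6), 5′ to 3′ on the gene's strand, with each CpG in capitals. All 3 lie outside the spans of their genes, and they were chosen because they span low to high CpG numbers. The outermost start of Foxa2 held 6 CpGs in these bases, the start of Foxa3 held 18, and the outer start of Gata2 held 22.
Foxa2, chr2:148046970-148047219, minus strand: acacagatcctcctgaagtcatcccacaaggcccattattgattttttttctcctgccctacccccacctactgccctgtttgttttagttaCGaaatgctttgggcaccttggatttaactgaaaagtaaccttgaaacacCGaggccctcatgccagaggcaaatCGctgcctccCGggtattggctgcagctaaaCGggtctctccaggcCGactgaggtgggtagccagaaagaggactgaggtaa
Foxa3, chr7:19023540-19023789, minus strand: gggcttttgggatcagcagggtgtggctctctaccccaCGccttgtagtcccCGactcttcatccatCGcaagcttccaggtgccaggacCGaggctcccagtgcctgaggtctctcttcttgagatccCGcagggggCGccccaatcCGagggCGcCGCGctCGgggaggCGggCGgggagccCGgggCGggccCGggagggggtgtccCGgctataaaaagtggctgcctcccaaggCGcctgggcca
Gata2, chr6:88193641-88193890, plus strand: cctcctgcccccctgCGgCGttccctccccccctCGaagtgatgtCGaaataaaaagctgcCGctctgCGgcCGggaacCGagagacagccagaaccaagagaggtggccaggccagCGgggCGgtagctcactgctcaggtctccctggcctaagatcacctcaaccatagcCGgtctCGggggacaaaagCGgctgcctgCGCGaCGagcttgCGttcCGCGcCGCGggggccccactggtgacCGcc

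The levels over these bases were low whatever the number of CpGs. The 12 cytosines before the outermost Foxa2 start lay between 6.74% and 7.09% in young cells and between 6.60% and 7.25% in old cells. The 36 cytosines before the Foxa3 start lay between 5.18% and 8% in young cells and between 4.15% and 5.89% in old cells. The 45 cytosines before the outer Gata2 start lay between 2.16% and 4.26% in young cells and between 2.23% and 3.57% in old cells. At each of the 3 starts the ranges of both ages overlapped.

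RefSeq promoters of 300 bp, which run from 250 bases before a start to 50 after it, were matched for 6 of the 8 genes and gave 9 starts. The mean level in young cells ran from 2.56% at the inner Gata2 start, with 29 CpGs, to 6.55% at the outermost Foxa2 start, with 12 CpGs. The median over all promoters was 10.2% with 7 CpGs, so the 9 starts were richer in CpG and less methylated than the middle promoter. Set against promoters with the same number of CpGs, however, each of the 9 had a level above the median. The Gata3 start stood at 6.31% in young cells, with a median of 2.72% over the 517 promoters that also held 22 CpGs. Old cells were lower at 8 of the 9 starts, which came from 6 genes and included inner and outer starts of Foxa2 and Gata2. The share over all promoters is not given here, and their median went from 10.2% to 10.1%. Over all positions of the genome the mean difference was -0.066 points at levels of 0 to 5% and -0.22 points at 5 to 10%. The difference was -1.38 points at Foxa3 (6.25% to 4.87%) and -1.19 points at the innermost Foxa2 start (5.32% to 4.12%), and the Foxa1 start went from 3.398% to 3.737%. The letters TGTTTAC, a forkhead motif, were in the Foxa1 promoter and in none of the other 8, on either strand, while 3.67% of all promoters held them. The letters GATAAG, which factors of the GATA family bind, were in none of the 9, while 7.47% of all promoters held them. A motif that is not in these 300 bases says nothing about the factor.

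Each whole gene window was less methylated than most. The mean over all positions of the genome was 64.1% in young against 64.6% in old cells, and the median gene window stood at 60.8% and 61.3%. The Foxa2 window, around a factor of endoderm, liver and midbrain dopamine neurons, stood at 8.49% in young against 8.65% in old cells. The Foxa1 window, around a factor of endoderm, prostate and breast, stood at 11.8% and 12.1%. Gata2, a factor of blood stem cells and endothelium, followed at 24.7% and 25.3%. Gata6, a factor of heart and endoderm, stood at 29.5% and 30.2%. Gata3, which directs T helper cells and mammary luminal cells, stood at 32.2% and 32.0%. Foxa3, the third FoxA gene of liver, stood at 32.7% and 32.8%. Gata4, a factor of heart and gonad, stood at 34.9% at both ages, and Gata5, a factor of heart and endoderm, had the highest levels, at 45.2% and 45.8%. The order of the 8 genes was Foxa2, Foxa1, Gata2, Gata6, Gata3, Foxa3, Gata4 and Gata5 in young cells. No spread over animals was at hand to say which neighbours in this order differ. The difference between the ages was between -0.21 points (Gata3) and 0.71 points (Gata6), with a median of 0.24 points. Over all gene windows the median difference was 0.39 points. It was 0.21 points over the 3074 gene windows within the level range of the members in young cells.

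**Figure D1:**
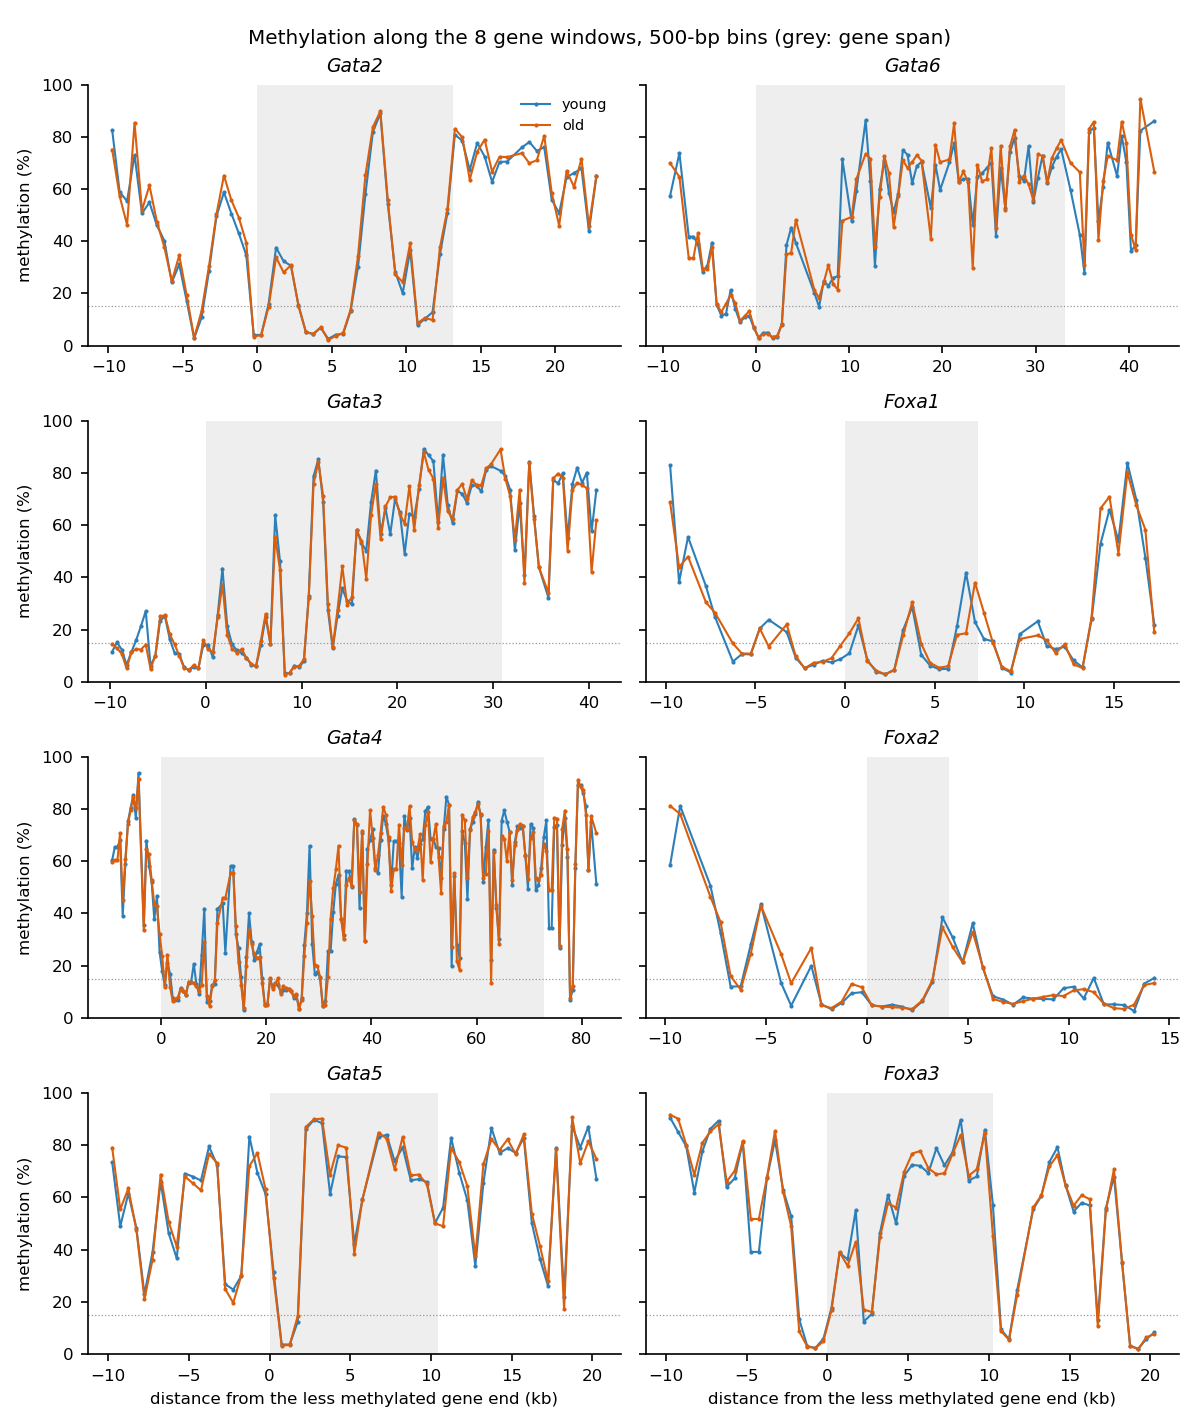
Methylation (%) in 500-bp bins against distance from the less methylated end of each gene (kb), with 1 panel for each of the 8 genes, young in blue and old in orange; grey marks the gene span and the dotted line 15%. Foxa2 and Foxa1 have the lowest window means, and the lines of both ages part by over 20 points at the far end of Foxa1 and in single bins of Gata4, Gata6 and Foxa2 that hold few positions.

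The plot of levels along the windows shows that both FoxA genes at the head of this order had low levels at most of their CpG positions. In the Foxa2 window 89.3% of positions were under 15% in young cells and 88.1% in old cells. In the Foxa1 window the shares were 79.9% and 76.4%. These shares in young cells exceeded those of 99.98% and 99.76% of 21462 genes, where the median gene had 15.8%. Gata6 had 53.4% of its positions under 15% in young cells and 48.2% in old cells. Gata2 (52.4% and 52.3%), Gata3 (51.3% and 52.1%) and Foxa3 (48.7% and 48.9%) differed less between the ages. Gata4 went from 41.1% to 43.3%, and Gata5, the least rich in such positions, from 28.1% to 25.8%. The share was thus lower in old cells in 5 genes and higher in Gata3, Gata4 and Foxa3.

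Runs of at least 20 positions with a mean of both ages under 15%, ended where 5 in a row reached 15%, were counted along the windows. The 8 windows held 37 such stretches, 71308 bp in all, and 18 of the 37 had a higher mean in old cells. The longest, of 8219 bp, lay in the lower-coordinate flank of Foxa2 at chr2:148032917-148041135 and went from 7.71% to 7.11%. Most of it lay inside the long noncoding RNA gene 9030622O22Rik, and it reached past the end of that gene. Stretches were counted only inside the windows, so this one, which begins near the window edge, may be longer. The stretches of Foxa2 covered 55.3% of its window. A second stretch of 3348 bp covered most of the Foxa2 gene (chr2:148043780-148047127) and stood at 4.99% in old cells, a difference of -0.013 points. Gata6 held a stretch of 4967 bp across its less methylated end (chr18:11050377-11055343) that went from 5.32% to 5.71%. A shorter stretch of 418 bp outside Gata6 (chr18:11049155-11049572) went from 10.7% to 14.8%, the highest difference of the 37. Gata4 had 8 stretches with a total of 16216 bp, Gata3 had 8 with 12528 bp, Foxa1 6 with 10244 bp (37.4% of its window), Gata2 4 with 7033 bp and Foxa3 4 with 4643 bp. All 4 Foxa3 stretches were lower in old cells, and all 3 Gata6 stretches were higher. Gata5 had a single stretch, of 1347 bp at chr2:180333801-180335147, which stood at 4.96% and 4.91%.

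The ends of each gene were described next, as windows of 1000 bp on each side, with the end of lower mean called the less methylated end. It was the lower-coordinate end in Gata2 and Gata6 and the higher-coordinate end in the other 6 genes. In Foxa1 (chr12:57540628-57548029) the level there went from 11.5% to 14.6% over 86 positions, a difference of 3.14 points. In Gata4 (chr14:63198914-63271712) it went from 22.9% to 25.2% over 51 positions, a difference of 2.28 points. These 2 genes stood apart from the other 6, whose differences were between -0.41 and 0.42 points. Foxa2 (chr2:148042877-148046969) went from 5.40% to 5.82%, Gata3 (chr2:9857078-9887953) from 12.3% to 12.7% and Gata6 (chr18:11052510-11085636) from 5.67% to 5.97%. Gata5 (chr2:180325088-180335503) stood at 22.4% at both ages. Gata2 (chr6:88193891-88207032) went from 7.87% to 7.59% and Foxa3 (chr7:19013283-19023539) from 9.80% to 9.39%. Old cells were thus higher at 6 of 8 less methylated ends, with a median difference of 0.35 points, where 45.9% of 19741 genes were higher and the median was -0.05 points. The count includes Gata5 with 0.014 points, and it was 5 of 8 with windows of 500 bp. An end here is an end of the whole span and need not be a start. The matched start of Gata3, chr2:9878600, lay farther inside the gene and outside this window, and its promoter went from 6.31% to 5.94%. No start was matched for Gata4 or Gata6. The Foxa1 difference was larger than that of 93.8% of genes and the Gata4 difference larger than that of 90.9%. No animal-level error can be set beside either value, and 1 gene carried much of the mean: it was 0.73 points over the 8 genes and 0.39 points without Foxa1.

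Both differences were nearest the end itself. With 500 bp on each side, the difference was 5.38 points at Foxa1 and 6.27 points at Gata4, and with 2000 bp it was 1.12 points at both. In Foxa1 the stretch that starts at this end, chr12:57547996-57550942, went from 7.02% to 8.16%. The lower-coordinate end of the gene Ttc6 lies inside Foxa1, so this end of Foxa1 also lies inside Ttc6. The matched RefSeq start of Foxa1, chr12:57546111, lies farther inside the gene and outside this end window. The low stretch over that start, chr12:57544896-57547022, went from 4.64% to 4.54%.

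**Figure D2:**
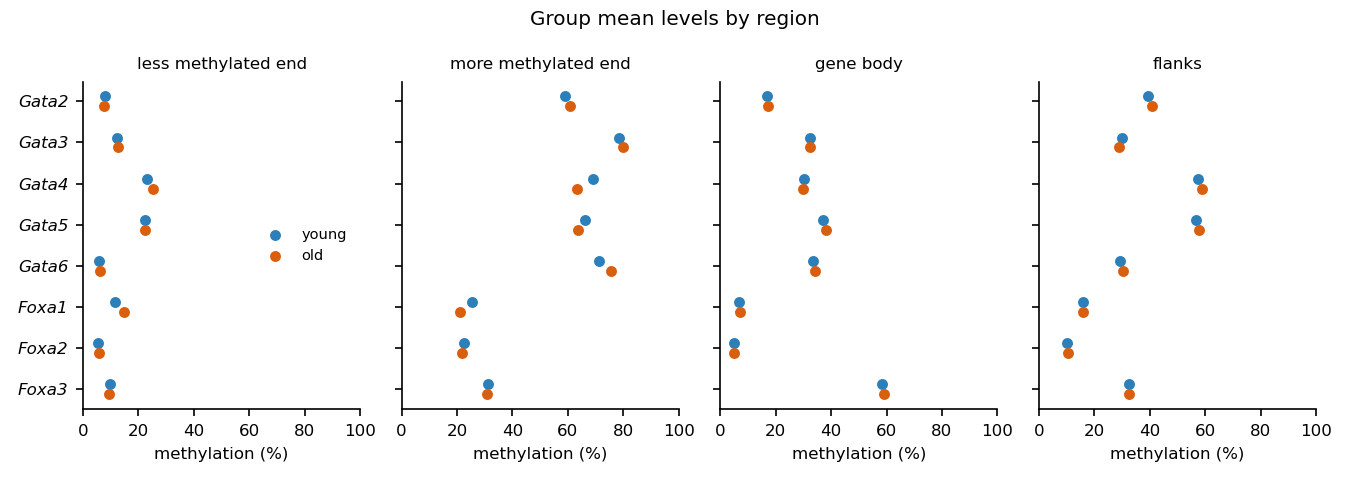
Mean methylation (%) of young (blue) and old (orange) cells in 4 kinds of region, with 1 row for each of the 8 genes; each point is 1 deposited group mean over positions, with no error. At the less methylated ends Foxa1 (11.5% to 14.6%) and Gata4 (22.9% to 25.2%) show the widest gaps, and at the other ends Gata4, Foxa1 and Gata6 do.

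The opposite ends differed more between the ages and in both directions, as the plot of levels by region shows. Gata4 went from 68.9% to 63.3% over 33 positions, a difference of -5.67 points. Foxa1 went from 25.5% to 21.1%, a difference of -4.46 points, and Gata5 from 66.2% to 63.7%. Gata6 went upwards from 71.2% to 75.4% over 27 positions, Gata2 from 59.0% to 60.7% and Gata3 from 78.5% to 79.8%. Foxa2 (22.4% to 21.7%) and Foxa3 (31.0% to 30.9%) differed by less than 1 point between the ages. Old cells were higher at 3 of 8 of these ends, where 59.0% of all genes were higher, and the mean difference was -0.78 points. It was 0.75 points with windows of 2000 bp. With windows of 500 bp it was 0.70 points, which rested on Foxa1 (15.03 points over 6 positions): it was -1.35 points without Foxa1 and -1.51 points over the 5 genes with at least 10 positions there. In 5 of the 8 genes (Gata2, Gata4, Gata5, Foxa1 and Foxa2) the 2 ends had differences of opposite sign. At Gata5 this rested on 0.014 points at the less methylated end. Foxa1 and Gata5 lost it with windows of 500 bp. With windows of 2000 bp Gata5 and Foxa2 lost it and Foxa3 gained it, while Gata2 and Gata4 kept it at both widths. The share of all genes with ends of opposite sign is not given here, so nothing is read from the count of 5.

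Gene bodies, meaning the span without the end windows, were low for genes. Foxa2 stood at 5.01% in young cells, with a difference of -0.0077 points, and Foxa1 at 6.66% and 7.09%. Gata2 went from 16.8% to 17.2%, Gata4 stood at 30.3% in young cells with a difference of -0.28 points, Gata3 stood at 32.4% at both ages and Gata6 went from 33.6% to 34.2%. Gata5 (37.0% to 38.0%) and Foxa3 (58.4% to 59.1%) were the highest, while the median body over 18443 genes was 70.0% in young against 70.6% in old cells. Old cells were higher in 6 of 8 bodies with a median difference of 0.40 points, and in 73.8% of all bodies with a median of 0.48 points. Of 3365 bodies within the level range of the members in young cells, 65.3% were higher, with a median of 0.32 points.

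Most genes were uneven along their length, which is shown with each whole span, ends included, divided into 4 equal segments from the less methylated end. In Gata4 the segments stood at 13.4%, 13.7%, 64.8% and 61.5% in young cells. Gata3 had the same shape, with 15.9%, 20.3%, 65.2% and 77.0%. In Gata6 the step came 1 segment earlier, from 7.41% to 60.3%, then 63.9% and 67.1%, and in Gata5 likewise from 11.8% to 77.1%. The segments of Gata2 followed no such step and stood at 13.7%, 5.30%, 45.9% and 23.5%. Foxa3 stood at 26.4%, 51.5%, 71.0% and 70.7%. Foxa1 was low throughout, at 9.80%, 6.28%, 7.39% and 13.5%. In Foxa2 the last segment stood at 19.2%, and the 3 before it between 4.58% and 4.87%. Old cells differed from young cells by at most 3.02 points in any segment, in the last one of Gata6 (67.1% to 70.1%), followed by 3.01 points in the third of Gata2 (45.9% to 48.9%).

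The flanks, from 1000 to 10000 bp outside each gene, were higher in old cells in 7 of 8 genes, with a median difference of 0.57 points, against 67.2% of all genes and a median of 0.39 points. Gata4 went from 57.3% to 58.9%, Gata2 from 39.6% to 40.8%, Gata6 from 29.2% to 30.2% and Gata5 from 56.8% to 57.7%. Foxa2 (10.2% to 10.5%), Foxa3 (32.4% to 32.6%) and Foxa1 (15.9% to 16.0%) differed by less. Gata3 alone was lower, at 30.01% in young against 29.1% in old cells. With flanks of 5000 bp old cells were higher in 5 of 8 genes, since 4 flanks changed sign: Gata3 to 0.79, Gata5 to -0.37, Foxa1 to -0.12 and Foxa3 to -0.44 points.

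The table also holds a dispersion, phi, for each age and position, which the sources used here do not define. At the less methylated ends the mean phi of Gata2 was 0.0468 in young against 0.0455 in old cells, and that of Gata5 0.0508 and 0.0529. The mean phi of all positions was 0.0487 in young against 0.0491 in old cells, and the median was 0.0438 and 0.0434. By the mean, the Gata2 end was thus below all positions at both ages and the Gata5 end above. The highest dispersions lay in the lower-coordinate flank of Gata4, whose mean phi went from 0.0588 to 0.0655 while the level went from 52.7% to 54.7%. A single tile of 1000 bp there (chr14:63195000-63195999) had a mean phi of 0.152 in young against 0.168 in old cells, and its level went from 50.1% to 52.6%. It lies beside the end of Neil2, a gene for a DNA glycosylase.

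Cut into tiles of 1000 bp with at least 10 positions, the windows gave 299 tiles, of which 169 were higher and 130 lower in old cells (56.1% of 1231224 tiles of the genome were higher). A difference of at least 10 points was reached by 3 tiles upwards (1.00%, against 1.29% of all tiles) and by 4 downwards (1.34%, against 0.836%). The largest difference, from 34.6% to 18.4%, lay in the last part of Foxa1 (chr12:57541000-57541999). A tile in the flank outside this same end (chr12:57533000-57533999) went from 60.2% to 72.0%. In the lower-coordinate flank of Gata3 a tile went from 63.9% to 50.02% (chr2:9847000-9847999), and in its body a tile went from 62.3% to 70.9% (chr2:9868000-9868999). In the Gata4 body neighbouring tiles differed in opposite directions, from 53.1% to 64.3% (chr14:63226000-63226999) and from 62.2% to 52.8% (chr14:63227000-63227999). A tile in the body of Gata6 went from 52.9% to 42.0% (chr18:11075000-11075999), and its highest difference was in a flank tile that went from 62.6% to 69.5% (chr18:11092000-11092999). Beyond Foxa2 a tile went from 13.5% to 24.5% over 12 positions (chr2:148051000-148051999), while the lowest difference of a Foxa2 tile was -2.46 points.

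**Figure D3:**
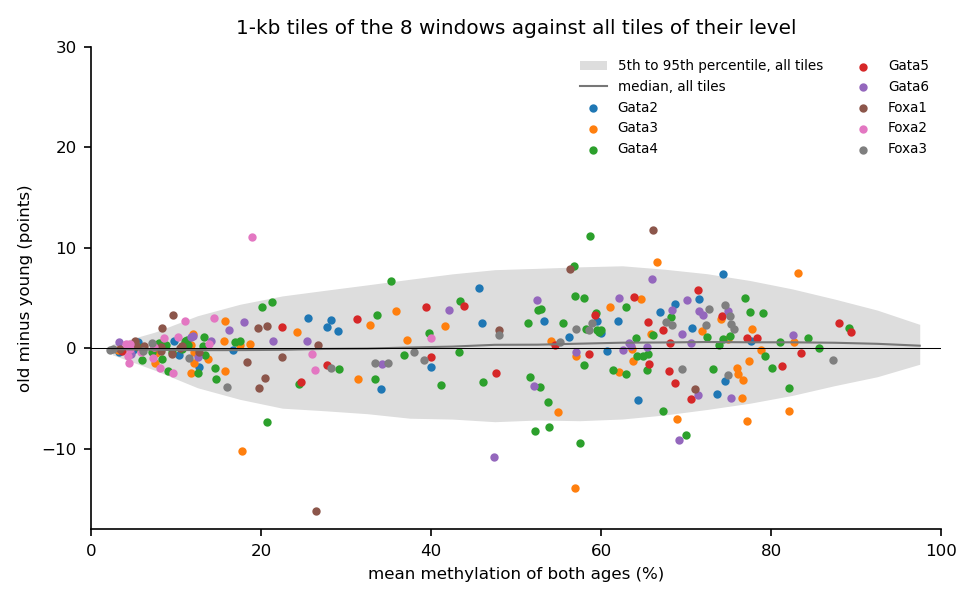
Difference between old and young (points) against mean methylation of both ages (%) for the 299 tiles of 1000 bp, coloured by gene; the grey band runs from the 5th to the 95th percentile of all tiles of the genome at that level and the grey line is their median. The Foxa1 tile at -16.2 points and the Foxa2 tile at 11.0 points lie farthest outside the band among tiles of low level.

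In the remaining genes the extremes were smaller. Gata2 had a tile that went from 70.7% to 78.1% beside another that went from 66.9% to 61.7%, in its lower-coordinate flank. Gata5 ranged from -5.06 to 5.83 points and Foxa3 from -3.87 to 4.30 points. As the plot of tiles by level shows, 11 of the 299 tiles lay above the band that holds 90% of all tiles of their level and 17 lay below it. These were 3.68% and 5.69% of the tiles, near the 5% that the band leaves on each side. Foxa2 had 3 tiles above and 3 below among 19, Gata4 had 2 and 6 among 83, Gata3 had 2 and 5 among 51, and Gata2, Gata5 and Foxa3 had none.

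At single positions, 13 of the 12093 had an FDR below 0.05 for old against young in the authors' deposited table, 10 of them lower and 3 higher in old cells. This was 0.1075% of the positions, while 0.236% of all positions passed (0.132% higher and 0.105% lower), and nothing is read from either share since the genes were chosen on the same contrast. At 12 of the 13 the phi of at least 1 age was the most common value of the table (0.0438 in young or 0.0434 in old cells). This held for 24.0% of all positions and for 13.7% (Gata2) to 22.4% (Gata3) of the positions in each window. Without such positions 1 of the 13 was left. None lay in Gata3, Gata5, Foxa2 or Foxa3. Differences of at least 10 points were found at 200 positions upwards (1.65%, against 4.10% of all positions) and at 165 downwards (1.36%, against 3.17%). These shares were not matched for level, and only 10.7% of all positions had a mean of both ages under 15%. Over all positions of 0 to 5%, the 5th to 95th percentiles of the difference were -0.62 to 0.46 points. At 60 to 80% they were -9.46 to 10.84 points, so the smaller shares here do not show greater stability with age.

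The 7 positions in Foxa1 all lay within chr12:57541213-57541584, a block of 372 bp and 12 positions inside the end opposite to the less methylated one. Foxa1 is read from the minus strand, so this is the 3′ end of the gene. The mean of the block went from 41.1% in young to 18.7% in old cells, a difference of -22.4 points. At 5 of the 7 positions the level went from 43.34% to 18.20%, and at the other 2 from 39.99% to 18.94%; equal levels at neighbours are not separate measurements. The lowest p of the block, taken from the authors' deposited table, was 2.86e-08, with an FDR of 4.83e-05, at position 57541214. The other cytosine of that CpG, at 57541213, had the same levels and a p of 0.0783 with an FDR of 1 in the authors' deposited table. Its phi was 0.0364 in young against 0.0375 in old cells, and that of 57541214 was at the most common value at both ages.

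**Figure D4:**
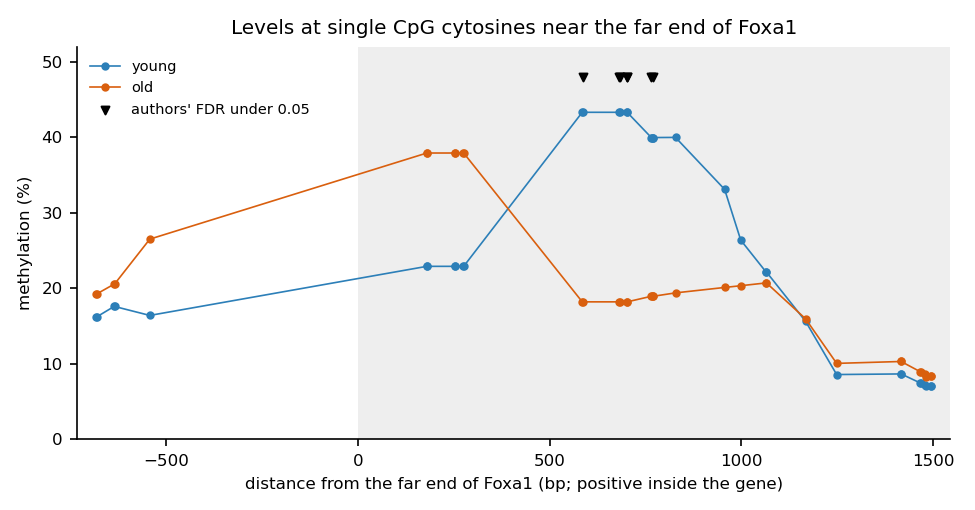
Methylation (%) of single cytosines of young (blue) and old (orange) cells against distance from the far end of Foxa1 (bp, positive inside the gene, shaded); triangles mark positions with an FDR below 0.05 in the authors' deposited table. Young cells are higher over the block with the triangles (41.1% against 18.7%) and lower over the 7 positions nearer to and beyond the end (22.0% against 36.3%).

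Nearer to this end and across it, at chr12:57540086-57540904, the direction was the reverse: 7 positions went from 22.0% to 36.3%, and none of them passed the FDR. The plot of single cytosines shows that young cells had their peak inside the gene, in the block described above, and old cells had theirs nearer the end. Farther inside, at chr12:57541876-57543896, both ages were low, at 5.87% and 7.08%. With both signs side by side here, the end window of Foxa1 changed sign with its width: it was -4.46 points with 1000 bp on each side and 15.03 points, over 6 positions, with 500 bp.

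The other 6 positions past the FDR were spread over 3 genes. In the body of Gata6, the positions chr18:11061594 and chr18:11061665 both fell from 71.28% to 47.81%, with an FDR of 0.00957 in the authors' deposited table. In the flank of Gata6, chr18:11087077 rose from 42.35% to 66.39%, with an FDR of 0.0219 in the authors' deposited table, inside a block of 6 positions that went from 53.9% to 68.8%. In Gata4, chr14:63197710 in the flank rose from 34.36% to 48.95% and chr14:63234094 in the body rose from 20.29% to 32.92%, with FDRs of 0.00815 and 0.00494 in the authors' deposited table. In Gata2, chr6:88214374 in the flank fell from 65.44% to 45.94%, with an FDR of 0.0286 in the authors' deposited table.

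Blocks of at least 5 neighbouring positions that all differed by at least 10 points in the same direction numbered 29. Gata4, the longest gene, held 12, Gata3 and Gata6 held 5 each, Foxa1 held 3, Foxa3 held 2, and Gata2 and Foxa2 held 1 each. In Gata3, 22 positions at chr2:9868708-9868959 went from 56.5% to 70.6%, and 12 positions at chr2:9866838-9867327 went from 53.4% to 68.4%. In Foxa1, 7 positions at chr12:57533636-57533756 in the flank went from 62.0% to 82.1%. In Gata6, 10 positions at chr18:11075692-11075882 in the body went from 46.3% to 29.7%. Apart from the Foxa1 and Gata6 blocks described above, no block held a position past the FDR. Neighbours often share 1 level, so the positions of a block are not separate measurements. The number of such blocks over the genome is not given here.

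The width of the unmethylated valley at the less methylated end was measured as the run of positions around that end until 5 in a row reached 15%. Gata6 had the widest, 5023 bp in young and 3391 bp in old cells. Gata3 went from 3791 to 2307 bp, Foxa1 from 2947 to 2514 bp and Foxa2 from 3390 to 3348 bp. Gata2 (1241 bp) and Gata4 (348 bp) had the same width at both ages, Gata5 went from 1398 to 1347 bp, and Foxa3 alone was wider in old cells, at 2019 bp after 1912 bp. The widths turned on a few positions near the bound. With a bound of 20%, Gata6 was 215 bp and Foxa1 2783 bp wider in old cells, Gata3 was the same at both ages, and Foxa2 was narrower, with a difference of -6645 bp, so the direction at Gata6 and Foxa1 depended on the bound. Gata5 was narrower and Foxa3 wider in old cells under all 5 settings, and Gata3 and Foxa2 were wider under none. The mean difference over the genes was -442 bp and lay between -656 and -286 bp under the other settings.

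Genes known to work with or beside these factors were described in the same way from 5 lists of 39 genes. At their less methylated ends 20 were higher and 19 lower in old cells, with a median difference of 0.0036 points. Old cells were higher at 7 of 9 endoderm factors that act with FoxA and at 9 of 16 other forkhead genes. They were higher at 3 of 7 GATA partners and cofactors, 1 of 4 heart factors that act with GATA4 and 0 of 3 nuclear receptors that act with FoxA1. The lowest difference was at Esr1, the oestrogen receptor alpha gene, which went from 22.5% to 14.4% over 76 positions. No change was tested in these lists.

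The sorted cells were checked only by methylation, since no expression was measured. At the less methylated ends of 6 muscle stem cell markers the median was 10.4% in young against 9.47% in old cells. It was 33.0% and 35.0% over 4 endothelial markers, 54.4% and 52.9% over 4 blood markers, and 26.0% and 26.5% over 4 fibro-adipogenic markers. The lists overlapped in young cells. Single ends ran from 3.88% to 24.1% over the muscle stem cell markers and from 12.7% to 72.5% over the endothelial markers. They ran from 18.4% to 67.1% over the blood markers and from 6.04% to 46.4% over the fibro-adipogenic markers. A low end thus did not set the muscle stem cell markers apart. A methylation level does not measure the share of other cells, and their part in the differences above was not tested.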

How the data were processed

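Libraries of 4 young and 4 old mice, grouped by the age in the labels, were made from 150 ng of DNA with 14 PCR cycles and read as pairs of 101 bp to between 115000000 and 200000000 reads, per the labels' protocols. Trim Galore, Bismark and edgeR with builds mm10 and GRCm38 are named per the submitters' processing notes. Versions, tool roles and the smoothing method were not given in the sources used here. Per the file headers, the deposited table holds for each age a level mu, a fraction that the authors estimated over the group, and a dispersion phi, treated as a score of the authors. It also holds the authors' deposited p-value, with its FDR, for old against young. Many neighbours share exactly the same mu, so adjacent positions are not independent, as with smoothing along the chromosome. Depth per position is unknown.

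Mu was turned into percent and averaged, each position counting the same, over chromosomes 1 to 19 and X. Deposited positions count from 0, so 1 was added: 100% of 781958 positions in RefSeq promoters then fell on a CpG, against 55.2% before. Spans and promoters came from RefSeq tables (GRCm38.p6, a patch of mm10). Regions and tiles needed at least 10 positions, except at the more methylated ends with windows of 500 bp, where 3 genes had fewer. No test was run, because no values per animal were at hand and the genes were chosen on the same contrast. The members and lists were chosen with earlier results of these data known. All 8 genes are named, with their highest and lowest tile, every position past the authors' FDR of 0.05, and of the other lists the lowest gene; the highest is not reported here. Blocks, low stretches and the tiles of highest dispersion named as examples were picked after their values were seen. Alternatives were 1 value per CpG, other end windows, flanks and valley bounds, and leaving out positions inside other genes or at the most common phi. The valley script was tested on simulated data. Python 3.11.15, numpy 2.4.6, pandas 2.3.3 and matplotlib 3.10.9 were used.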

Additional observations from a re-analysis of the deposited data

How the results depend on the processing

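No paired analysis was possible because the deposited table holds 1 value for each age and none for an animal; for the same reason no replicate could be left out. The count of 13 positions past the authors' FDR fell to 8 at an FDR of 0.01 and to 1 without positions at the most common phi, and stayed at 13 when at least 10 points were also required. The mean difference at the more methylated ends, -0.78 points, changed sign to 0.75 with windows of 2000 bp and to 0.70 with windows of 500 bp; the latter rested on Foxa1 (15.03 points over 6 positions) and was -1.35 without it and -1.51 over the 5 genes of at least 10 positions, both chosen after seeing the data. The mean at the less methylated ends was between 0.23 (2000 bp) and 1.26 points (500 bp), and without positions inside other genes it rested on fewer genes and was 0.50 points. Old cells were higher at 6 of 8 of these ends with 2000 bp and at 5 of 8 with 500 bp. They were higher at 5 of 8 without positions at the most common phi and at 2 of 4 without positions inside other genes. Leaving out each gene in turn, an alternative chosen after seeing the data, gave 0.39 to 0.90 points there, -1.49 to -0.08 at the more methylated ends, 0.26 to 0.44 in bodies and 0.39 to 0.75 in flanks. Of 140 values of single genes under the alternatives, 125 moved by less than 1 SD over the genes, 15 moved by more and 16 changed sign. Of 69 means, counts and widths, 67 were classed as unmoved. The SD over 8 genes is wide, and a mean with 1 gene left out could not move by 1 SD. The counts of positions have no SD over the genes, so this tally does not measure stability. The cause of these shifts was not tested. Depth is unknown, so no limit of detection can be given.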

Other observations

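Genes next to the GATA and FoxA genes share some of the same low stretches. The higher-coordinate end of Gata6os, a long noncoding RNA gene that overlaps the less methylated end of Gata6, stood at 5.60% in young against 5.83% in old cells, and the end of Gm38708 inside Gata2 stood at 4.00% and 3.80%. The lower-coordinate end of Sympk, a gene beside Foxa3 for a scaffold protein of RNA 3′ end processing, went from 4.31% to 3.64%. The far end of Ttc6, which overlaps Foxa1 and reaches well beyond its window, went from 64.8% to 71.3% over 22 positions. The lower-coordinate end of 9030622O22Rik beside Foxa2 went from 65.0% to 69.6% over 18 positions, while its other end, in the longest low stretch, went from 9.70% to 9.23%.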
